A study of Mus musculus with 6 samples.

Results

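The cytosolic ribosomal protein genes are the Rpl genes of the large subunit and the Rps genes of the small subunit. They were taken from the count tables by symbol: Rpl or Rps with a number and at most a short suffix, plus Rplp0, Rplp1, Rplp2 and Rpsa, with pseudogene names and the Rps6k kinases left out. The rule found 85 genes among 22488, of which 52 belong to the large and 33 to the small subunit. No measured value entered the rule. RNA came from livers of male WT C57BL/6 mice aged 6 to 8 weeks that had been fasted for 16 h. The LPS group (3 libraries) received 6 mg/kg lipopolysaccharide, an outer membrane component of Gram-negative bacteria, into the peritoneum. The control group (3 libraries) received 200 µl HBSS, a buffered salt solution, although another label field of these samples reads no treatment. The time between injection and collection is not stated in the sources used here, and nothing beyond the labels states that the libraries came from separate mice, so p-values measure the spread between these 6 samples.

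Each cytosolic ribosome carries nearly all of its proteins in equal numbers, wrapped around the ribosomal RNAs of a large and a small subunit. The large subunit forms the peptide bond and the small subunit decodes the mRNA. Most mRNAs for these proteins begin with a C and a run of pyrimidines, the 5′ terminal oligopyrimidine (TOP) tract, through which mTORC1 and the RNA-binding protein LARP1 control how strongly they are translated. A count of mRNA does not measure how strongly an mRNA is translated. Several of these genes serve as reference genes in quantitative PCR, and nearly all have processed pseudogenes in mammalian genomes.

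The start-site sequences below were searched for such a run. They belong to the called members with the largest changes and at least 10 CPM in the higher group (CPM being read counts scaled to a common library size). Each window holds 15 bases before and 15 bases from the annotated start of RefSeq (GRCm38.p6, mm10), read 5′ to 3′ on the gene's strand. Capitals mark a C that lies within 5 bases of the start and is followed by at least 4 bases that are C or T. Those of Rpl27a and Rpl13a run on past the window. Windows wholly in lower case hold no such run, which says nothing of where transcription starts in liver. The first 5 belong to genes that were higher in LPS livers, and Rps27a has no entry in the table used. They lie at chr3:28805493-28805522 (plus strand) for Rpl22l1, chr7:109519180-109519209 (plus) for Rpl27a, chr7:141447636-141447665 (plus) for Rplp2, chr7:3704026-3704055 (plus) for Rps9 and chr17:46782642-46782671 (minus) for Rpl7l1.
Rpl22l1: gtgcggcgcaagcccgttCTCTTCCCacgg
Rpl27a: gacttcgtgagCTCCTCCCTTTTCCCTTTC
Rplp2: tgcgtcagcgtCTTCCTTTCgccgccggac
Rps9: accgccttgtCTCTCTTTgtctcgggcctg
Rpl7l1: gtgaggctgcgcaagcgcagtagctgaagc

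The next 5 belong to genes that were lower in LPS livers. They lie at chr7:45128731-45128760 (minus strand) for Rpl13a, chr5:121204486-121204515 (plus) for Rpl6, chr14:18270972-18271001 (minus) for Rpl15, chr12:28635939-28635968 (minus) for Rps7 and chr2:26910792-26910821 (plus) for Rpl7a. Rpl22, also among them, has 2 annotated starts, and neither window holds a run.
Rpl13a: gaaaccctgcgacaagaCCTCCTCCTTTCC
Rpl6: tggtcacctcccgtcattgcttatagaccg
Rpl15: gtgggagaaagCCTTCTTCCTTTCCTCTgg
Rps7: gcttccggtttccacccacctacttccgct
Rpl7a: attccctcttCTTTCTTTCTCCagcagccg

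Of the 85 genes, 65 were in the RefSeq promoter table, and 30 of them (46.2%) had such a run at a start, against 21.2% of 27025 genes with a promoter there. Within the promoters, which span 250 bases before to 50 after the start, the ETS core CCGGAAG was present on either strand in 40.0% of the ribosomal protein genes and 9.93% of all genes. The SP1 motif GGGCGG was present in 61.5% and 38.2%, the YY1 motif AAGATGG in 15.4% and 7.28%, and the TATA box TATAAA in 10.8% and 15.7%. Among the tested members with a pyrimidine run at a start, 6 of 30 were higher and 3 lower in LPS livers, with a median log2 fold change of 0.09. Among those without one, 4 of 32 were higher and 8 lower, with a median of -0.02. The background over all tested genes was 31.3% higher and 31.0% lower. Runs occurred on both sides, in Rpl27a and Rplp2 as in Rpl15 and Rpl7a.

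Libraries held 11488525 to 15437785 counts in the LPS group and 12577993 to 20282004 in the control group. Hepatocyte markers were abundant in every library, at a summed 74600 to 101000 CPM in LPS livers and 118000 to 131000 CPM in control livers, and none of 10 was at 0 throughout. Markers of some cell types moved with the groups. In LPS livers 9 of 9 tested neutrophil markers were higher (summed 220 to 267 CPM, against 5.61 to 8.61 CPM in control livers). There, 8 of 9 tested Kupffer cell markers were lower (82.1 to 132 CPM, against 314 to 358 CPM). Over all tested genes 31.3% were higher and 31.0% lower. The summed markers of endothelial, stellate and erythroid cells overlapped between the groups. Their tested markers were called in 6 of 8, 5 of 7 and 4 of 6 cases, in both directions. Summed cholangiocyte markers were higher in LPS livers (117 to 139 CPM, against 19.4 to 32.9 CPM). So were those of T and NK cells (13.3 to 14.8 CPM, against 3.06 to 6.71 CPM). Summed monocyte markers were lower (255 to 333 CPM, against 381 to 403 CPM), although 4 of 7 tested were called higher. Those of B cells were lower too (12.1 to 13.4 CPM, against 20.2 to 26.1 CPM). The part of cell types in the results below was not tested. In bulk RNA fewer cells of a type and less RNA per cell cannot be told apart. The ribosomal protein genes differed between control libraries. Of the 77 that reached 10 CPM in a group, 66 lay above their group mean in control 2 and 2 lay above it in control 3. Their median deviation on the log2 scale was 0.13 in control 2, -0.15 in control 3 and 0.04 in control 1. It was 0.05, -0.03 and -0.02 in LPS 1, 2 and 3. These deviations were not counted over all tested genes, so whether they are particular to ribosomal protein genes was not tested.

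**Figure D1:**
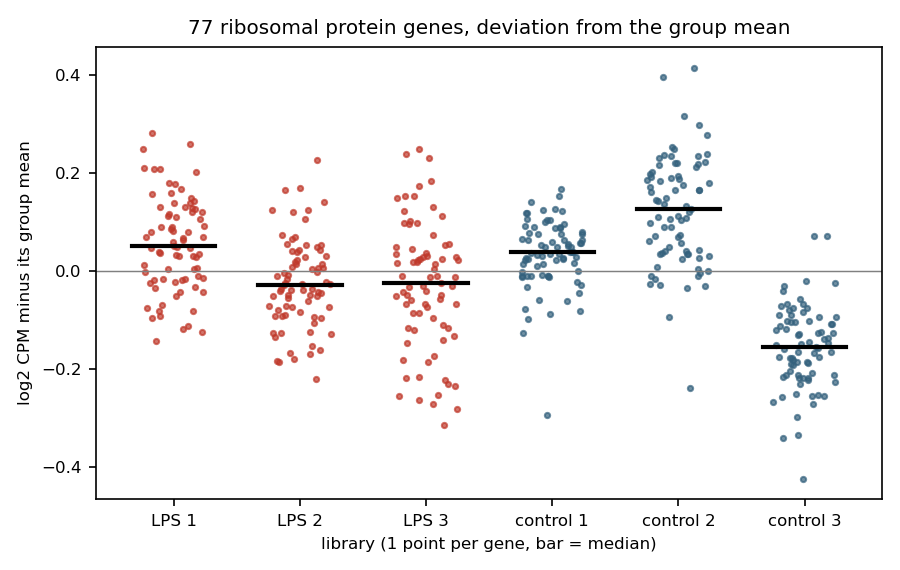
Deviation of 77 ribosomal protein genes from their group mean in each library (log2 CPM, 1 point per gene, bar at the median; LPS libraries in red, control libraries in blue). The genes of control 2 sit mostly above 0 (median 0.13) and nearly all those of control 3 below it (median -0.15).

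Ribosomal protein mRNAs took about the same share of all counts in LPS and control livers, while 62.3% of the tested genes changed. Their counts made up 1.46%, 1.38% and 1.25% of all counts in the LPS livers and 1.45%, 1.49% and 1.30% in the control livers, so the groups overlapped. Summed after TMM scaling (edgeR's correction for library composition) they came to 13969 ± 319 CPM in LPS livers and 13838 ± 1135 CPM in control livers (SD, n = 3 each), a ratio of 1.01. By library totals alone the ratio was 0.965, on the other side of 1, so the direction of the sum depends on the scaling. Without control 3 the log2 ratio was -0.052 and without control 2 it was 0.06.

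Of the 82 genes with enough counts to test, 12 rose and 14 fell in LPS livers (edgeR quasi-likelihood test, Benjamini-Hochberg adjusted p under 0.05 over 12078 genes). These 26 are 31.7% of the members, against a background of 62.3% of all tested genes (31.3% higher and 31.0% lower). The other 56 did not pass, and 29 members had an unadjusted p under 0.05. Groups did not overlap for 34 members (41.5%), 19 higher and 15 lower, against a background of 67.4% of all tested genes. Among the members with at least 10 CPM in the higher group 25 of 77 passed (32.5%), against 71.6% of 8062 genes at that level.

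The changes were small. The median log2 fold change of the members was 0.03 and that of all tested genes 0.01, but the median size of the change was 0.23 in the members and 0.71 in all genes. Within 1.5-fold in either direction lay 76 of 82 members (92.7%) and 42.2% of all tested genes. At least 2-fold and past the test was 1 member, Rpl36al, against a background of 34.2% of all tested genes. The counts of calls depended on single libraries. There were 6 higher and 17 lower members without control 3, 14 and 6 without control 2, 7 and 13 without LPS 1, 9 and 5 without LPS 2, and 17 and 8 without LPS 3. Scaling by library totals gave 7 higher and 19 lower. Members that passed in all 6 fits with a library left out numbered 9: Rpl36al, Rpl22l1, Rpl27a, Rplp2, Rps27a and Rpl7l1 higher, and Rpl6, Rpl5 and Rpl26 lower.

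**Figure D2:**
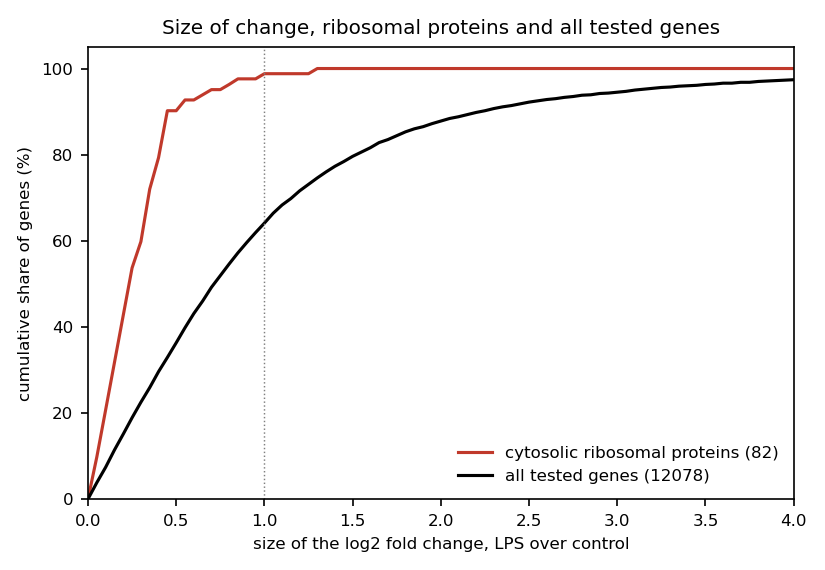
Cumulative share of genes (%) by the size of the log2 fold change, LPS over control, for 82 ribosomal protein genes (red) and all 12078 tested genes (black); the dotted line marks a 2-fold change. The ribosomal protein curve climbs earlier, with a median size of 0.23 against 0.71.

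**Figure D3:**
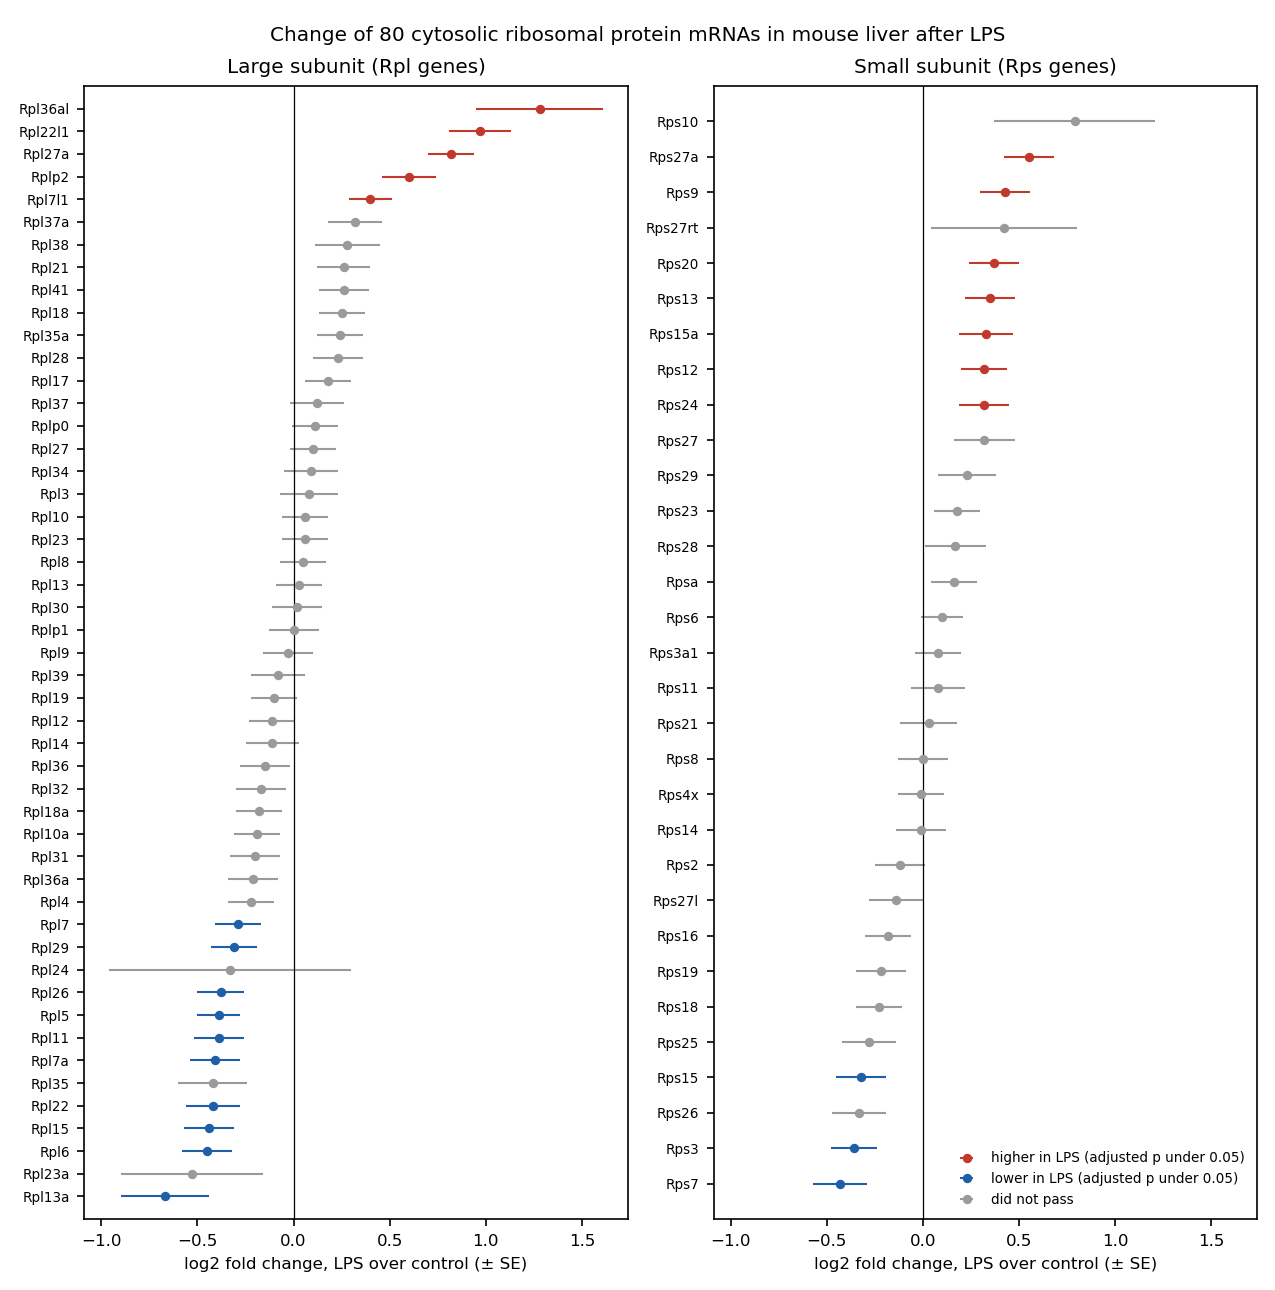
Log2 fold change (LPS over control) with its standard error for the 49 tested large-subunit genes (left) and 31 of the small-subunit genes (right), ranked; red and blue points passed the test as higher or lower in LPS livers and grey points did not. Of the large-subunit genes 5 are red and 10 blue, and of the small-subunit genes shown 7 are red and 3 blue.

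The median size of the change was 0.23 on the log2 scale in either subunit. Of 49 tested large-subunit genes 5 rose and 10 fell (median log2 fold change -0.03), and of 33 small-subunit genes 7 rose and 4 fell (median 0.08). The summed level of large-subunit over small-subunit genes was 1.25, 1.27 and 1.30 in LPS livers and 1.34, 1.31 and 1.35 in control livers. Every LPS library lay below every control library in this ratio, which averaged 1.27 ± 0.0236 and 1.33 ± 0.0227 (SD, n = 3 each). The gap was narrow, between 1.30 in LPS 3 and 1.31 in control 2. Ratios of other gene sets were not computed, so this lack of overlap has no background of its own kind. Proteins with a counterpart in the bacterial ribosome rose in 5 and fell in 7 of 33 genes, and those without one, copies left out, rose in 4 and fell in 7 of 44. The proteins of the mitochondrial ribosome, encoded by other nuclear genes, rose in 11 and fell in 25 of 77 genes (46.8% called), with a median of -0.17. The background over all tested genes was 31.3% higher and 31.0% lower. Rises and falls over all members shifted with single libraries, as given above, and this was not followed by subunit.

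Rpl27a, a large-subunit protein, had the smallest adjusted p of the members. It had 305, 308 and 314 CPM in LPS livers, against 183, 189 and 155 CPM in control livers. The LPS libraries lay close together and far above all control libraries. The means were 309 ± 4.86 and 175 ± 18.2 CPM (SD, n = 3 each), so that the log2 fold change was 0.82 (SE 0.12, adjusted p = 5.94e-05).

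Rplp2 encodes an acidic protein of the lateral stalk, which recruits translation factors with GTPase activity. It had 192, 200 and 148 CPM in LPS livers and 128, 121 and 106 CPM in control livers, with no overlap (log2 fold change 0.60, SE 0.14, adjusted p = 0.00189). Its partners in the stalk did not pass the test. Rplp1 had 399, 391 and 352 CPM in LPS livers and 401, 408 and 335 CPM in control livers, a log2 fold change of 0.00 (SE 0.13). Rplp0, the stalk base, had 433, 449 and 448 CPM in LPS livers and 447, 401 and 386 CPM in control livers, a log2 fold change of 0.11 (SE 0.12). Both sets of values overlapped between the groups.

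Rps27a is made as a fusion with ubiquitin, which is cleaved off. It had 263, 239 and 287 CPM in LPS livers and 184, 197 and 160 CPM in control livers (log2 fold change 0.55, SE 0.13, adjusted p = 0.00222). Every LPS library exceeded every control library. Fau, a fusion of a small-subunit protein with a ubiquitin-like protein, is not taken by the symbol rule. It was at 246 ± 9.66 CPM in LPS livers and 253 ± 45.5 CPM in control livers and did not pass. Rack1, a scaffold on the small subunit also outside the rule, fell to 259 ± 14.7 CPM in LPS livers, against 344 ± 8.09 CPM in control livers (log2 fold change -0.41, adjusted p = 0.00782; SD, n = 3 each).

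Rps9, a small-subunit protein, had 359, 323 and 353 CPM in LPS livers and 272, 271 and 224 CPM in control livers (log2 fold change 0.43, SE 0.13, adjusted p = 0.00872). The groups did not overlap, but without control 3, its lowest library, the gene no longer passed. A further 5 small-subunit genes rose by less: Rps20 (0.37 on the log2 scale), Rps13 (0.35), Rps15a (0.33), Rps12 (0.32) and Rps24 (0.32). Each of these 5 lost its call in at least 2 of the 6 fits with a library left out. Rps6, the substrate of the S6 kinases, had 168, 169 and 173 CPM in LPS livers and 162, 162 and 151 CPM in control livers and did not pass (log2 fold change 0.10, SE 0.11).

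**Figure D4:**
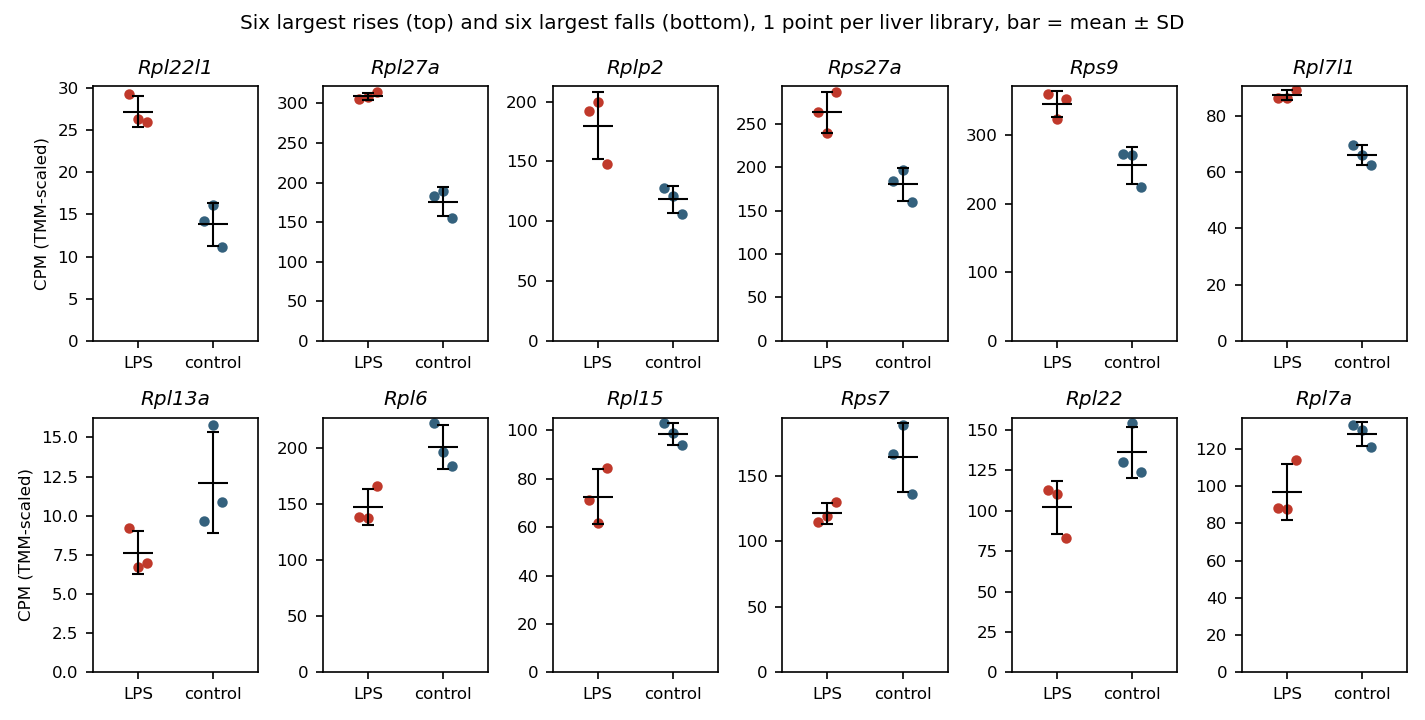
TMM-scaled CPM in each library for the 6 called members with the largest rises (top row) and the 6 with the largest falls (bottom row) among those with at least 10 CPM, LPS in red and control in blue, with the mean and SD of 3 libraries. The LPS libraries of Rpl27a lie at 305 to 314 CPM, against 155 to 189 CPM in the controls, and those of Rpl6 at 138 to 166 CPM, against 184 to 223 CPM.

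Among the falls, Rpl6 of the large subunit had 139, 138 and 166 CPM in LPS livers and 223, 197 and 184 CPM in control livers (log2 fold change -0.45, SE 0.13, adjusted p = 0.00813). No LPS library reached a control library. Rpl15, which lies at the core of the large subunit, had 71.4, 61.8 and 84.4 CPM in LPS livers and 103, 99.1 and 93.9 CPM in control livers (log2 fold change -0.44, SE 0.13, adjusted p = 0.0104). Rpl7a, another large-subunit protein, had 88.1, 88.0 and 114 CPM in LPS livers and 133, 130 and 121 CPM in control livers (log2 fold change -0.41, SE 0.13, adjusted p = 0.0160). In both, LPS 3 was the highest LPS library and still below the controls, and both calls were lost without LPS 2.

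Rpl13a, a component of the complex that silences inflammatory mRNAs in human myeloid cells after interferon gamma, had 9.21, 6.75 and 6.99 CPM in LPS livers and 9.67, 15.8 and 10.9 CPM in control livers. The groups did not overlap, though LPS 1 and control 1 were close. It had the largest fall among the called members (log2 fold change -0.67, SE 0.23, adjusted p = 0.0204), but it was called in 3 of the 6 fits with a library left out. Of its exon bases, 59.3% also belong to other annotated genes on the same strand, and how such reads were counted is not stated in the sources used here.

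Of 7 listed members that bind MDM2 or otherwise take part in controlling p53, 5 fell and none rose (median on the log2 scale -0.38). Thus 71.4% were called, and 62.3% of all tested genes were called in either direction. By direction, 31.0% of all tested genes and 17.1% of the tested members were lower. The list was not tested as a set. The list is not complete, and Rps27a and Rps20, which have also been reported to bind MDM2, rose. Rpl5 and Rpl11, which carry an rRNA into the large subunit and inhibit MDM2 when they are free of ribosomes, were both lower. Rpl5 had 199, 195 and 201 CPM in LPS livers and 249, 258 and 273 CPM in control livers (log2 fold change -0.39, SE 0.11, adjusted p = 0.00871). Rpl11 had 164, 150 and 149 CPM in LPS livers and 202, 227 and 176 CPM in control livers (log2 fold change -0.39, SE 0.13, adjusted p = 0.0172). In neither did the groups overlap. Of the exon bases of Rpl5, 46.6% overlap another gene on the opposite strand, and the strand setting of the counting is not known.

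Rps7, which binds MDM2 directly, had 115, 119 and 130 CPM in LPS livers and 167, 189 and 136 CPM in control livers (log2 fold change -0.43, SE 0.14, adjusted p = 0.0140), and its call was lost without control 2. Rpl26, which binds the p53 mRNA, fell by 0.38 and Rps3 by 0.36 on the log2 scale. Rpl23 (0.06) and Rps27l (-0.14), the remaining genes of this list, did not pass. The p53 inhibitor itself, Mdm2, rose to 61.9 ± 2.00 CPM in LPS livers, against 35.0 ± 3.74 CPM in control livers (log2 fold change 0.82). Trp53, which encodes p53, was at 7.93 ± 2.87 and 13.8 ± 1.67 CPM (log2 fold change -0.79, adjusted p = 0.0112; SD, n = 3 each). Further falls were in Rps15 (-0.32), Rpl29 (-0.31) and Rpl7 (-0.29, all log2), and each lost its call in 5 of the 6 fits with a library left out.

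Some ribosomal proteins have a second, similar gene, and the counts of these copies were set against those of their parents. Of 8 copies 5 could be tested, and 3 rose, with none lower. This share of 60.0% called is about that of all tested genes in either direction (62.3%). By direction, 31.3% of all tested genes were higher. The coding sequence of Rpl22l1 is 68.2% identical to that of Rpl22, an RNA-binding protein of the large subunit with a role in lymphocyte development. Rpl22l1 had 29.3, 26.3 and 25.9 CPM in LPS livers and 14.2, 16.1 and 11.1 CPM in control livers, without overlap (log2 fold change 0.97, SE 0.16, adjusted p = 0.00014). A gene on the opposite strand overlaps 28.8% of its exon bases. Rpl22 fell, with 113, 110 and 83.3 CPM in LPS livers and 130, 154 and 124 CPM in control livers (log2 fold change -0.42, SE 0.14, adjusted p = 0.0210). The counts of Rpl22l1 were therefore 25.9%, 24% and 31.2% of those of Rpl22 in LPS livers and 10.9%, 10.4% and 8.93% in control livers.

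Rpl7l1 was called higher and its parent Rpl7 lower, though the call of Rpl7 was lost in 5 of the 6 fits with a library left out. Their coding sequences are 54.0% identical. Rpl7l1 had 86.4, 86.3 and 89.2 CPM in LPS livers and 69.5, 65.9 and 62.6 CPM in control livers (log2 fold change 0.40, SE 0.11, adjusted p = 0.00698). Rpl7 had 242, 251 and 244 CPM in LPS livers and 319, 299 and 283 CPM in control livers (log2 fold change -0.29, SE 0.12, adjusted p = 0.0432). The copy thus stood at 35.7%, 34.4% and 36.6% of its parent's counts in LPS livers and at 21.8%, 22.1% and 22.1% in control livers, values that hardly varied within a group.

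Rpl36al, whose coding sequence is 87.9% identical to that of Rpl36a, was the largest rise of all members but a scarce mRNA. It had 61, 101 and 60 counts in LPS livers and 40, 43 and 26 in control livers, or 5.20, 7.10 and 4.28 CPM against 3.12, 2.09 and 1.67 CPM (log2 fold change 1.28, SE 0.33, adjusted p = 0.0043). Of its exon bases 63.1% also belong to another annotated gene on the same strand. Rpl36a itself was at 81.5 ± 7.82 CPM in LPS livers and 94.2 ± 12.6 CPM in control livers (SD, n = 3 each) and did not pass (log2 fold change -0.21, SE 0.13).

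Rps27l, which in human cells is induced by p53, had 141, 109 and 120 CPM in LPS livers and 134, 156 and 117 CPM in control livers. Its parent Rps27 had 193, 172 and 140 CPM in LPS livers and 124, 165 and 114 CPM in control livers. Neither passed the test (log2 fold changes -0.14 and 0.32, adjusted p = 0.406 and 0.0946), while the ratio of copy to parent was 72.9%, 63.2% and 86.3% in LPS livers and 108%, 94.5% and 103% in control livers. Rps27rt has the same coding sequence as Rps27 base for base, so reads from either cannot be assigned there. It had 3.16, 2.53 and 2.85 CPM in LPS livers and 2.65, 2.43 and 1.28 CPM in control livers. Rpl10l had no count in any library, Rpl39l had 2 counts in LPS 3 alone, and Rpl3l had 2 counts in each of LPS 2, LPS 3 and control 3. Those genes are known from testis or muscle.

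For 4 of the 5 pairs the ratio of copy to parent did not overlap between the groups, and each of these gave an exact 2-sided permutation p of 0.1, which is the smallest that 3 against 3 allows (0.125 after adjustment over 5 pairs). Rps27rt over Rps27 gave p = 0.8 by the same exact permutation test. The ratio was higher in LPS livers for Rpl22l1, Rpl7l1 and Rpl36al and lower for Rps27l. Ratios of other gene pairs were not computed, so the count of 4 has no background of its own kind. Among single tested genes, 67.4% did not overlap between the groups.

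**Figure D5:**
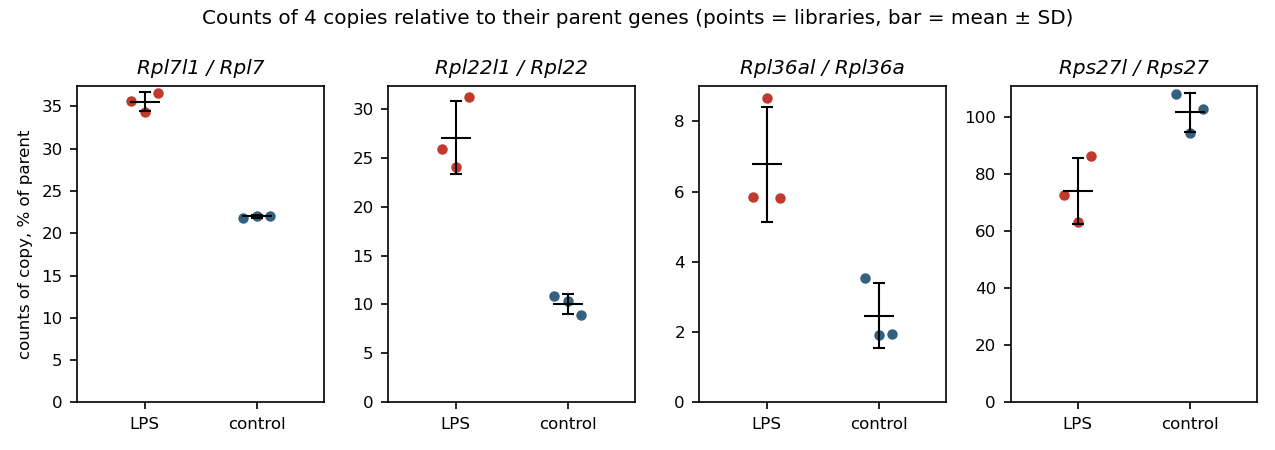
Counts of 4 copies as a percentage of the counts of their parent gene in each library, LPS in red and control in blue, with the mean and SD of 3 libraries. Rpl7l1 stands at 34.4% to 36.6% of Rpl7 in LPS livers, against 21.8% to 22.1% in controls, while Rps27l over Rps27 is lower in LPS livers.

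Per kilobase of annotated transcript the tested members ranged from 1.35 to 764 CPM per kb, with a median of 224. Highest were Rplp1 (764 CPM per kb), Rpl41 (740), Rps14 (503) and Rps27 (438). Rpl41 encodes one of the shortest known proteins and had 364, 362 and 332 CPM in LPS livers and 297, 334 and 251 CPM in control livers, which overlapped (log2 fold change 0.26, SE 0.13, adjusted p = 0.103). Rps14 had 317, 294 and 288 CPM in LPS livers and 304, 336 and 263 CPM in control livers (-0.01). Rpsa, also known as a laminin receptor, had 492, 488 and 457 CPM in LPS livers and 460, 419 and 406 CPM in control livers (0.16, SE 0.12), with LPS 3 just below control 1. Rps3a1 had 371, 391 and 318 CPM in LPS livers and 337, 348 and 334 CPM in control livers (0.08).

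The lowest tested members were Rpl24 (1.35 CPM per kb), Rps10 (3.23), Rpl23a (3.85), Rps27rt (6.64) and Rpl36al (7.43). Rpl24 had 0.768, 1.13 and 0.570 CPM in LPS livers and 0.234, 1.26 and 1.54 CPM in control livers. Rps10 had 2.22, 2.04 and 1.85 CPM in LPS livers and 1.09, 0.973 and 1.48 CPM in control livers, and Rpl23a had 1.45, 1.97 and 1.85 CPM in LPS livers and 2.65, 2.38 and 2.63 CPM in control livers. Rps10 and Rpl23a did not overlap between the groups, yet neither passed (adjusted p = 0.117 and 0.224). Rpl24, Rps10 and Rpl23a encode standard proteins of the ribosome. Another gene on the same strand covers 71.5% of the exon bases of Rpl24 and 91.6% of those of Rps10, and 85.7% of the 50-base windows of the Rpl23a transcript occur in other genes. The counts of these genes are therefore uncertain. Across the 85 members 82 share such windows with other genes, at a median of 60.0% of the transcript. Of 10 tested members under 25% shared, 3 rose and 2 fell. Of 44 between 25% and 75%, 7 rose and 7 fell, and of 28 above 75%, 2 rose and 5 fell. The background over all tested genes was 31.3% higher and 31.0% lower.

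Coding length and direction were set side by side. Of 40 genes below the median length of 456 bases 8 rose and 4 fell (median on the log2 scale 0.09), and of 42 at or above it 4 rose and 10 fell (median -0.02). The background over all tested genes was 31.3% higher and 31.0% lower. The counts by length were not repeated with a library left out. Across the 82 genes, which share the same libraries and are not replicates, the log2 fold change and the log2 coding length had r = -0.26 and rho = -0.28. The summed level of the shorter over the longer genes was 0.725, 0.694 and 0.629 in LPS livers and 0.612, 0.693 and 0.596 in control livers, so the groups overlapped.

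Among the members used as reference genes in quantitative PCR, 1 of 7 fell (Rpl13a) and none rose, and the median size of the change was 0.22 on the log2 scale. Rplp0 was given above. Rps18 had 184, 189 and 212 CPM in LPS livers and 251, 225 and 209 CPM in control livers (log2 fold change -0.23, SE 0.12, adjusted p = 0.125). Rpl32 had 164, 152 and 164 CPM in LPS livers and 178, 206 and 157 CPM in control livers (-0.17, SE 0.13). Rpl19 had 123, 120 and 131 CPM in LPS livers and 142, 136 and 123 CPM in control livers (-0.10, SE 0.12). All 3 overlapped between the groups.

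Rpl4 had 412, 469 and 463 CPM in LPS livers, all below its 541, 513 and 516 CPM in control livers, but it did not pass (-0.22, SE 0.12, adjusted p = 0.122). Rps29 had 151, 173 and 124 CPM in LPS livers and 126, 147 and 108 CPM in control livers, which overlapped (0.23, SE 0.15). Reference genes outside the ribosome were called in 12 of 16 cases, 5 higher and 7 lower, with a median size of 0.70; of all tested genes 62.3% were called, with a median size of 0.71. Actb, cytoplasmic actin, was at 1270 ± 105 CPM in LPS livers and 239 ± 22.2 CPM in control livers (log2 fold change 2.40). Gapdh, a glycolytic enzyme, was at 29.6 ± 4.44 and 9.86 ± 0.581 CPM (1.59), and Hsp90ab1, a chaperone, at 413 ± 39.0 and 1080 ± 59.7 CPM (-1.39; SD, n = 3 each). Sequence shared with other genes was not measured for genes outside the ribosome, so how well their reads could be assigned is not known.

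Other mRNAs of the TOP class and genes that serve the ribosome formed 5 lists, in which the calls ran from 19 of 38 to 10 of 14 tested genes, against 62.3% of all tested genes. Of 20 non-ribosomal TOP mRNAs 3 rose and 9 fell (median on the log2 scale -0.26). Eif4b, a cofactor of the initiation helicase, fell to 144 ± 9.19 CPM in LPS livers, against 247 ± 7.66 CPM in control livers (-0.78, adjusted p = 5.82e-05). Eef1a1, which brings aminoacyl-tRNA to the ribosome, fell to 1830 ± 331 CPM, against 2620 ± 155 CPM (-0.52, adjusted p = 0.00872). Btf3 (0.57), which shields nascent chains, Vim (0.66), an intermediate filament protein, and Hnrnpa1 (0.47), a splicing factor, rose.

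Of 41 initiation factors 12 rose and 11 fell (median 0.10). Eif6, which binds the large subunit and keeps it from joining the small one, was at 301, 295 and 306 CPM in LPS livers, against 78.5, 67.8 and 76.8 CPM in control livers (log2 fold change 2.02, SE 0.12, adjusted p = 7.99e-09). Eif1a, a factor of start-codon scanning, rose to 286 ± 16.0 CPM, against 82.6 ± 2.18 CPM (1.79). Of 14 elongation and termination factors 5 rose and 5 fell (median 0.14). The smallest adjusted p was that of Gspt2, a release factor with a scarce mRNA. It was at 4.18 ± 0.0421 CPM in LPS livers and 0.466 ± 0.137 CPM in control livers (3.17). The more abundant Gspt1 went the other way, at 40.7 ± 2.71 CPM in LPS livers and 62.7 ± 3.83 CPM in control livers (-0.62). Among 38 genes of mTORC1 and TOP mRNA control 7 rose and 12 fell (median -0.08). Repressors and inhibitors of the pathway were called in both directions. Eif4ebp1, a repressor of cap-dependent initiation, rose to 96.6 ± 7.16 CPM in LPS livers, against 47.9 ± 3.37 CPM in control livers (1.01), and Sesn1 (1.63) and Ddit4 (1.74), which restrain mTORC1, rose as well. Lower were Eif4ebp2, a repressor of the same family as Eif4ebp1, at 60.0 ± 4.28 CPM in LPS livers and 210 ± 5.62 CPM in control livers (-1.81), and Deptor, an mTOR inhibitor, at 37.9 ± 6.54 and 179 ± 18.7 CPM (-2.24). Larp1b, a relative of the TOP mRNA binder Larp1, was lower too, at 29.8 ± 2.06 and 65.1 ± 5.63 CPM (-1.13; SD, n = 3 each throughout).

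Of 25 genes for ribosomal protein chaperones and ribosome quality control 6 rose and 9 fell, with a median of -0.23. Usp10, a deubiquitinase of stalled small subunits, fell to 23.4 ± 0.712 CPM in LPS livers, against 76.7 ± 6.73 CPM in control livers (log2 fold change -1.71). Ltn1, the ubiquitin ligase for nascent chains on stalled large subunits, fell to 22.5 ± 1.5 CPM, against 40.1 ± 2.68 CPM (-0.84). Nemf, the partner of Ltn1 on the stalled large subunit, rose to 43.3 ± 1.41 CPM in LPS livers, against 28.2 ± 1.67 CPM in control livers (0.62; SD, n = 3 each). Zfp598 (0.48), a ligase that marks collided ribosomes, and Map3k20 (1.07), a kinase activated by them, rose as well.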

How the data were processed

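The authors deposited raw read counts per gene, whole numbers without normalization, 1 table per library with 8-character fields for symbol, Entrez identifier and count. Per the submitters' processing notes the tools were bcl2fastq 2.0, HISAT2, StringTie, DESeq2 and limma, and the build mm10; the counting tool, its strand setting and its handling of multi-mapping reads are not stated in the sources used here. Shortened symbols were restored from the Entrez identifier (GRCm38.p6 gene table), and of the 85 members 83 were named so and 2 by symbol. Genes were tested in R 4.3.3 with edgeR 4.0.16 (TMM, filterByExpr with a minimum count of 10, quasi-likelihood F test, 2-sided), with Benjamini-Hochberg adjustment over the 12078 tested genes. The common biological coefficient of variation was 16.4%. CPM per library uses TMM-scaled library sizes. The procedure was tested on simulated counts. Transcript lengths, exon overlap and shared windows came from GENCODE M21.

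The members, gene lists and tests were chosen with earlier results of these data known. Members named with values in every library are the 6 largest called rises and 6 largest called falls with at least 10 CPM in the higher group, the 5 highest and 5 lowest per kb, the stalk, copies and their parents, reference genes, Rps6, Rps27a, Rps3a1, Rpl41 and Rpsa; of other lists, the 3 genes with the smallest adjusted p may be named. Rpl5, Rpl11, Rack1, Fau, Trp53, Eef1a1, Btf3, Vim, Hnrnpa1, Eif4ebp1, Sesn1, Sesn3, Ddit4, Nemf, Zfp598 and Map3k20 were added after their values were seen. A few genes are not reported here by name, though counts include them. Alternatives were RLE and library-total scaling, DESeq2 1.42.0, limma-voom 3.58.1, no filter, the replicate number as a block, a length and GC offset, and each library left out. Counts limit precision for the 6 tested members under 20 CPM in both groups. The exact permutation test (numpy 2.4.6) is over libraries, and the correlations across members used scipy 1.17.1.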

Additional observations from a re-analysis of the deposited data

How the results depend on the processing

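No called member reversed under any alternative. The count of higher members (12) was 7 with library totals as the only scaling, and 6 to 17 with a library left out; it was 8 to 16 under the other alternatives. The count of lower members (14) was 5 to 17 with a library left out and 14 to 19 otherwise. The summed level (log2 ratio 0.014) was -0.051 by library totals and -0.052 to 0.06 with a library left out. Scaling by library totals gave a median log2 fold change over all genes of -0.055, against 0.01 with TMM. The cause of these shifts was not tested. With the replicate number as a block, 14 members were higher and 15 lower; 1 call was lost (Rpl7) and 4 were gained. After group means were subtracted, same-numbered libraries had correlations of -0.000745, 0.104 and 0.0352. Those of unlike-numbered libraries ran from -0.121 to 0.0741. With 3 libraries per group these values cannot show whether the numbers mark pairs. The labels call the libraries repeat experiments 1 to 3 and do not say that the numbers pair them, so they were not taken as pairs. DESeq2 gave 12 higher and 15 lower, limma-voom and RLE each 12 and 14, and the length and GC offset 16 and 15. Without a filter on low counts 8 were higher and 16 lower of 84 tested. Depth limits Rpl24, Rps10, Rpl23a, Rps27rt and Rpl36al, whose annotation overlaps or near-identical copies also leave the origin of their reads uncertain.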
